A study of Mus musculus with 8 samples.

Results

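The interaction of marrow genotype and recipient genotype was measured in mouse lung: whether the difference between LysM-DTR and wild-type marrow was the same in LysM-DTR recipients as in wild-type recipients. For each gene it is (LL minus WL) minus (LW minus WW) on the log2 scale, so a value of 0 means that the 2 genotype differences add up, and a negative value means that LL lay below the sum. A gene entered when 3 or more of the 4 groups had a probe for it well above background on each of their 2 arrays, which held for 23587 of the 37074 gene names on the array. No measured difference between groups entered that choice, but the filter is not even-handed: it keeps a gene that is at background in one group and drops a gene that is seen in one group alone. Of the genes tested, 97 were at background on both LL arrays, and 114 further gene names had a probe above background in LL alone and were not tested.

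The mice were bone marrow chimeras, all male and 22 weeks old, and the lungs were taken 72 hours after diphtheria toxin, which every group received. The first letter names the marrow and the second the recipient, L for LysM-DTR and W for wild type. LL mice thus carried the transgene in both marrow and recipient, WL mice in the recipient only, LW mice in the marrow only, and WW mice in neither. Each group had 2 mice and each mouse 1 one-colour array, 8 arrays in all. In LysM-DTR mice the lysozyme M (Lyz2) promoter drives the receptor for diphtheria toxin, so the receptor is not limited to one cell type. How the recipients were conditioned, how much of the marrow was replaced and the dose of toxin are not given in the sources used here, and no array without toxin was analysed here. The study's title asks for growth factors of repair and for biomarkers of acute lung injury.

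Wild-type mouse cells bind diphtheria toxin poorly, and a cell that carries the transgenic receptor takes the toxin up, stops making protein and dies. Lyz2 is expressed by macrophages, monocytes and neutrophils, which come from the marrow or persist from the recipient, and by the surfactant-making alveolar type 2 cells of the lung epithelium, which a marrow graft does not replace. Monocytes and interstitial macrophages are renewed from marrow, whereas resident alveolar macrophages can maintain themselves locally. Whole lung RNA was measured, so fewer cells of a type and less RNA per cell cannot be told apart.

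In LL lungs, 13 genes fell below what the 2 single genotype differences add up to, and none rose above it, by limma at an adjusted p under 0.05. The 13 are 0.0551% of the genes tested for a negative interaction, against 0% for a positive one. The genes were Ms4a7, Cx3cr1, Clec7a, C1qa, C1qc, Cd163, Cd200r1, C1qb, Serpinb10, Scimp, Aif1, Slamf9 and Pld4, and the set holds all 3 chains of complement C1q together with receptors of monocytes and macrophages. Their interactions ran from −6.80 to −3.13 on the log2 scale. The median over all genes tested was 0.06, and 2072 genes had an unadjusted p under 0.05. By size alone, 605 genes had an interaction of −1 or less with each WL mouse in turn, and 362 had one of 1 or more. That no gene was called above the sum did not hold with either WL mouse left out, where genes were called in both directions. It also did not hold under some other ways of processing all 8 arrays, where 1 to 3 genes were called above the sum. With 1 array left out at a time, the lone mouse of its group taken to vary like the other groups, the same model called 3 genes without LL mouse 1 and 11 without LL mouse 2. It called 557 without WL mouse 1, 2535 without WL mouse 2, 1 without either LW mouse and 0 without either WW mouse. All 13 genes were called without WL mouse 1 and without WL mouse 2. Of the 13, 8 were above background on all 8 arrays.

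The sequences that stand for this result come first. C1qa and C1qb encode the A and B chains of C1q, which starts the classical complement pathway and is made in large part by macrophages. Both are read by 60-base probes within the coding sequence on the minus strand of chromosome 4 of mm9, C1qa at chr4:136452409-136452468 and C1qb at chr4:136436578-136436637.
C1qa probe: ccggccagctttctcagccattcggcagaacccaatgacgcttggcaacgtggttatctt
C1qb probe: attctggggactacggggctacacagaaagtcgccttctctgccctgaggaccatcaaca
The probe of C1qc, the C chain, lies between them at chr4:136445766-136445825 on the same strand.

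Because the 13 genes moved together, their promoters were searched for the core site of PU.1, GAGGAAG, a transcription factor that myeloid cells require. RefSeq promoter windows on GRCm38.p6, from 250 bases before to 50 after the gene start, were found for 10 of the 13 genes. These genes had 12 windows. The site was present on either strand in 3 of the 12 windows, those of C1qc, Slamf9 and Pld4. It was present in 13.6% of the 32851 promoter windows of all genes. The windows of those 3 genes and of C1qb, which lacks the letters, are shown with the site or its reverse complement in capitals. Slamf9 lies at chr1:172475110-172475409 on the plus strand, Pld4 at chr12:112760405-112760704 on the plus strand, C1qc at chr4:136892865-136893164 on the minus strand and C1qb at chr4:136886151-136886450 on the minus strand.
C1qc promoter: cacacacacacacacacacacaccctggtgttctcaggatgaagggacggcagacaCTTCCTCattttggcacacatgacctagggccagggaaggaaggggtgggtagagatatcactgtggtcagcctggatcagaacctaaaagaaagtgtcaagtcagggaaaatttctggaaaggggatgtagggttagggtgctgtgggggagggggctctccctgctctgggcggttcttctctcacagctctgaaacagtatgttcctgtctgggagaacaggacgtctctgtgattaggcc
Slamf9 promoter: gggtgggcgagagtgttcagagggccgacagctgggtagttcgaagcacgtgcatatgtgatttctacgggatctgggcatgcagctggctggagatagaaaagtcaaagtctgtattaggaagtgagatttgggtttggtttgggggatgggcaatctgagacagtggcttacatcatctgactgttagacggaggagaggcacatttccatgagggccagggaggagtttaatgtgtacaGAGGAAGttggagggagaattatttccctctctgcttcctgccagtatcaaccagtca
Pld4 promoter: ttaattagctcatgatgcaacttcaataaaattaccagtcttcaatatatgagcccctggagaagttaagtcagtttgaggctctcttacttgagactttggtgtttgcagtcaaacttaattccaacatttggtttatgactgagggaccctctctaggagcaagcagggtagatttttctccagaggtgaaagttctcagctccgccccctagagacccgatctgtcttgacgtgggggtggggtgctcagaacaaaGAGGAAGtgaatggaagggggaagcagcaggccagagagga
C1qb promoter: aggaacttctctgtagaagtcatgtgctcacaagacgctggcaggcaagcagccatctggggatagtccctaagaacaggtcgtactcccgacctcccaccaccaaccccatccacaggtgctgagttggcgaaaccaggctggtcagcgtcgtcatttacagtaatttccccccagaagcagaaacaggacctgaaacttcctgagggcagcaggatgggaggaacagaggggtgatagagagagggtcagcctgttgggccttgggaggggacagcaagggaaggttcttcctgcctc
The ETS-IRF composite motif was found in 2 of the 12 windows, against 2.72% of all promoter windows. Both were overlapping windows of Clec7a. An AP-1 site, TGANTCA, was found in 2 of the 12, of Ms4a7 and Serpinb10, against 7.81%. Each motif was counted by itself on both strands, and a PU.1 match and an ETS-IRF match can share the letters GGAA. A match describes letters and is not a shown binding site.

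Levels are log2 intensities minus the 75th percentile of the array, so 0 is the brightness of that percentile, and levels of different probes are not compared. The 3 C1q chains were low in both LL lungs and high in the 6 others. C1qa was −3.70 and −3.97 in LL, against 1.77 and 2.22 in WL, 1.1 and 0.67 in LW, and 0.99 and 0.79 in WW. The LL values did not overlap with any other array, and the WL values were the highest of the 8. The sum of the single differences would put C1qa at 1.99 in LL, and the measured mean was −3.84 ± 0.19 (SD, n = 2), an interaction of −5.83 with a standard error (SE) of 0.33 and an adjusted p of 0.0134 by limma.

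C1qc showed −2.13 and −2.86 in LL, against 3.14 and 3.55 in WL, 2.38 and 2.13 in LW, and 2.41 and 2.35 in WW. C1qb showed −2.77 and −2.98 in LL, against 1.41 and 1.97 in WL, 0.51 and 0.20 in LW, and 0.60 and 0.35 in WW. Again the LL arrays stood below all others, and LW minus WW was −0.13 for C1qc and −0.12 for C1qb. The interactions were −5.71 (SE 0.38, adjusted p = 0.0203) for C1qc and −4.44 (SE 0.33, adjusted p = 0.0228) for C1qb. In WL the chains were 0.96 to 1.22 higher than in WW, a difference that did not pass (adjusted p from 0.375 to 0.461).

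Surface proteins had the 3 most negative interactions. Ms4a7, a membrane protein of the MS4A family found on macrophages, was −5.05 and −4.80 in LL, against 1.86 and 1.76 in WL, 1.24 and 0.72 in LW, and 1.0 and 0.83 in WW. Its interaction was −6.80 (SE 0.30, adjusted p = 0.00526), the most negative value of the 13. The gene was above background on 1 of the 2 LL arrays. A second probe for Ms4a7 gave −5.77. That probe was above background on only 6 arrays, with both arrays of a group at background, so its value is no bound.

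Cx3cr1, the fractalkine receptor that marks patrolling monocytes and many tissue macrophages, was −4.35 and −4.82 in LL, against 2.30 and 1.36 in WL, 1.55 and 1.28 in LW, and 1.64 and 2.01 in WW. Its interaction was −6.01 (SE 0.48, adjusted p = 0.0308). Cx3cr1 too was above background on 1 of the 2 LL arrays. A second probe for Cx3cr1 gave −4.67, again with only 6 arrays above background, so that value is no bound either. Clec7a, dectin-1, which binds fungal beta-glucan, was −3.53 and −2.58 in LL, against 3.44 and 2.93 in WL, 2.88 and 2.49 in LW, and 2.77 and 3.13 in WW, with an interaction of −5.98 (SE 0.51, adjusted p = 0.0359). In both genes the 6 other arrays lay far above LL, and WL minus WW was 0.01 for Cx3cr1 and 0.23 for Clec7a.

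Cd163, Cd200r1 and Serpinb10 were at background on both LL arrays (measured as −6.58 and −5.85, −7.23 and −6.79, and −7.46 and −6.96 in that order). The fitted value is therefore no bound. The floor of an array is the lowest signal flagged well above background on it. Folds below put a group at background at the floor, or at its own signal where higher, in the main processing. They are called bounds, but are not strict lower limits. A gene could be at background above the floor, as Gp9 was at −4.95 in LL mouse 2, with a floor of −5.08. The spread of the other groups is not included either. Over all settings tried, the weakest interactions of Cd163, Cd200r1 and Serpinb10 were −1.46, −0.63 and −0.41. Cd163, the scavenger receptor for haemoglobin bound to haptoglobin, was −1.87 and −1.35 in WL, −1.45 and −1.15 in LW, and −2.20 and −1.66 in WW. With LL at the floor, it lay 18.0-fold below the sum of the single differences (fitted interaction −5.24, adjusted p = 0.0359 by limma). Cd200r1, the inhibitory receptor for CD200, was −2.36 and −2.27 in WL, −3.10 and −3.52 in LW, and −3.32 and −3.33 in WW. By the floor, LL was 7.22-fold lower (fitted −4.71, adjusted p = 0.0180 by limma). Serpinb10, a serpin of haematopoietic cells, was −2.52 and −2.71 in WL, −2.94 and −2.94 in LW, and −2.54 and −2.29 in WW. By the floor, LL was 4.02-fold lower (fitted −4.07, adjusted p = 0.0203 by limma). In each of the 3 genes all 6 other arrays were above background.

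The remaining 4 genes had the smallest interactions of the 13. Scimp, an adaptor that joins Toll-like receptors to kinases in macrophages, was −3.38 and −3.35 in LL, against 0.13 and 0.50 in WL, −0.48 and −0.74 in LW, and −0.57 and −0.44 in WW (interaction −3.58, SE 0.26, adjusted p = 0.0203). Aif1, the actin-binding protein known as Iba1, was −0.91 and −1.20 in LL, against 2.77 and 2.45 in WL, 2.02 and 1.56 in LW, and 1.84 and 2.05 in WW (interaction −3.52, SE 0.31, adjusted p = 0.0359). Both were above background on all 8 arrays.
Slamf9, a receptor of the SLAM family, was −1.62 and −1.27 in LL, against 1.79 and 1.73 in WL, 1.73 and 1.25 in LW, and 1.20 and 1.39 in WW (interaction −3.40, SE 0.30, adjusted p = 0.0359). Pld4, which degrades nucleic acids in the endolysosome, was −3.81 and −3.43 in LL, against −0.10 and −0.48 in WL, −0.92 and −1.02 in LW, and −0.77 and −0.77 in WW (interaction −3.13, SE 0.27, adjusted p = 0.0359). As with the other called genes, no LL array reached any of the 6 others.

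**Figure D1:**
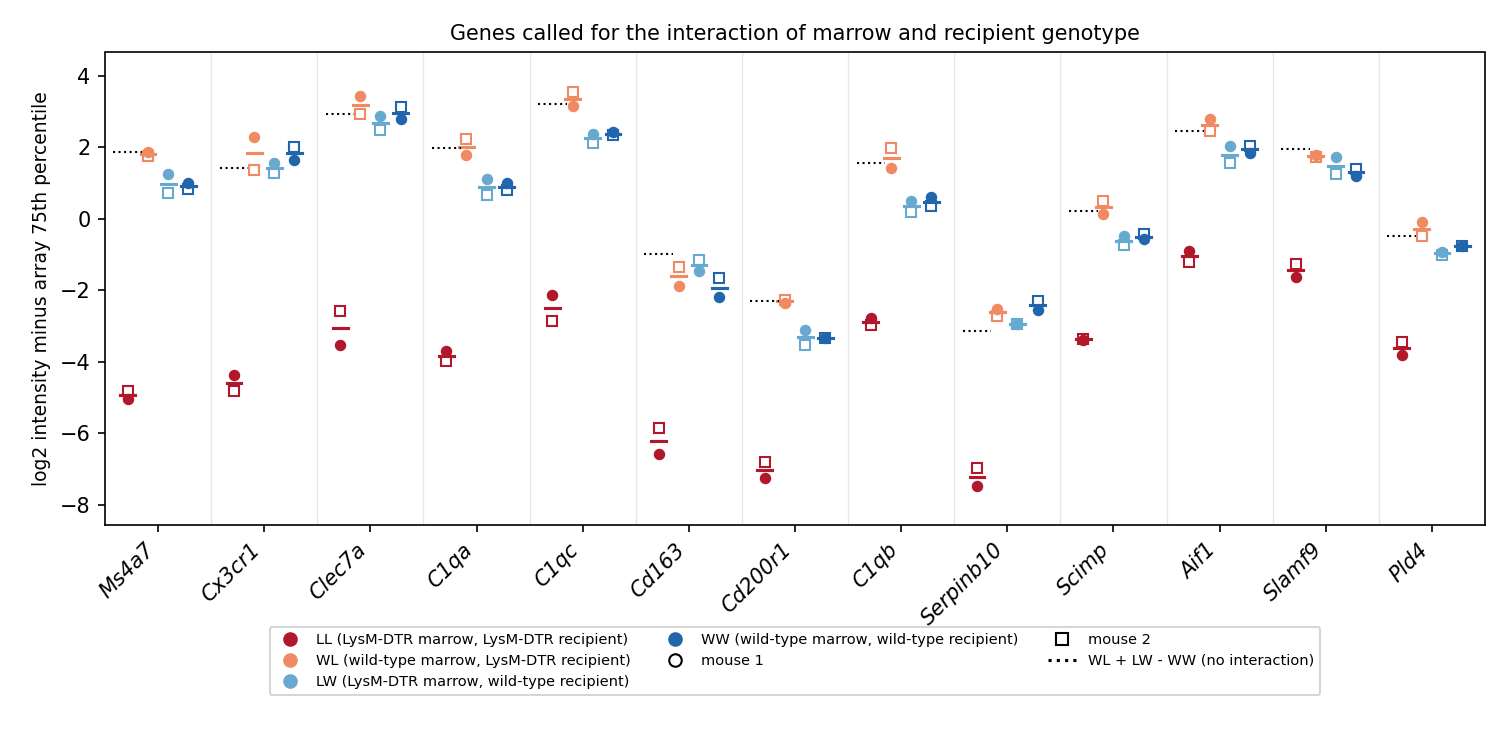
Log2 intensity minus the array's 75th percentile (vertical axis) of the 13 called genes (horizontal axis) in each of the 8 lungs, with filled circles for mouse 1 and open squares for mouse 2. Short bars are group means and the dotted line is the level of LL if the single genotype differences added up. In every gene the 2 LL points sit below the 6 others and below the dotted line.

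The 13 genes shared one shape. Both LL arrays were below the 6 others in 13 of 13 genes, against 10.2% of all genes tested, and both LL arrays were above the 6 others in 12.7% of all genes. LL against WL passed in all 13, with differences from −6.74 to −3.21, and LL against LW passed in all 13, with differences from −6.0 to −2.65. LW minus WW lay between −0.52 and 0.63 and passed in none of them. WL minus WW lay between −0.20 and 1.22 and passed in none of them. The arrays of LL enter both of the comparisons that passed, so these counts are not independent of each other or of the interaction.

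Over all genes, LL against WL called 0.611% higher and 1.28% lower, and LL against LW called 1.21% higher and 1.64% lower. LW against WW called 0% of genes by limma, with 364 genes at an unadjusted p under 0.05, and WL against WW called 0%, with 1968 genes at an unadjusted p under 0.05. In each of the 13 genes the interaction and the LL minus WL difference were at most 0.63 apart.

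**Figure D2:**
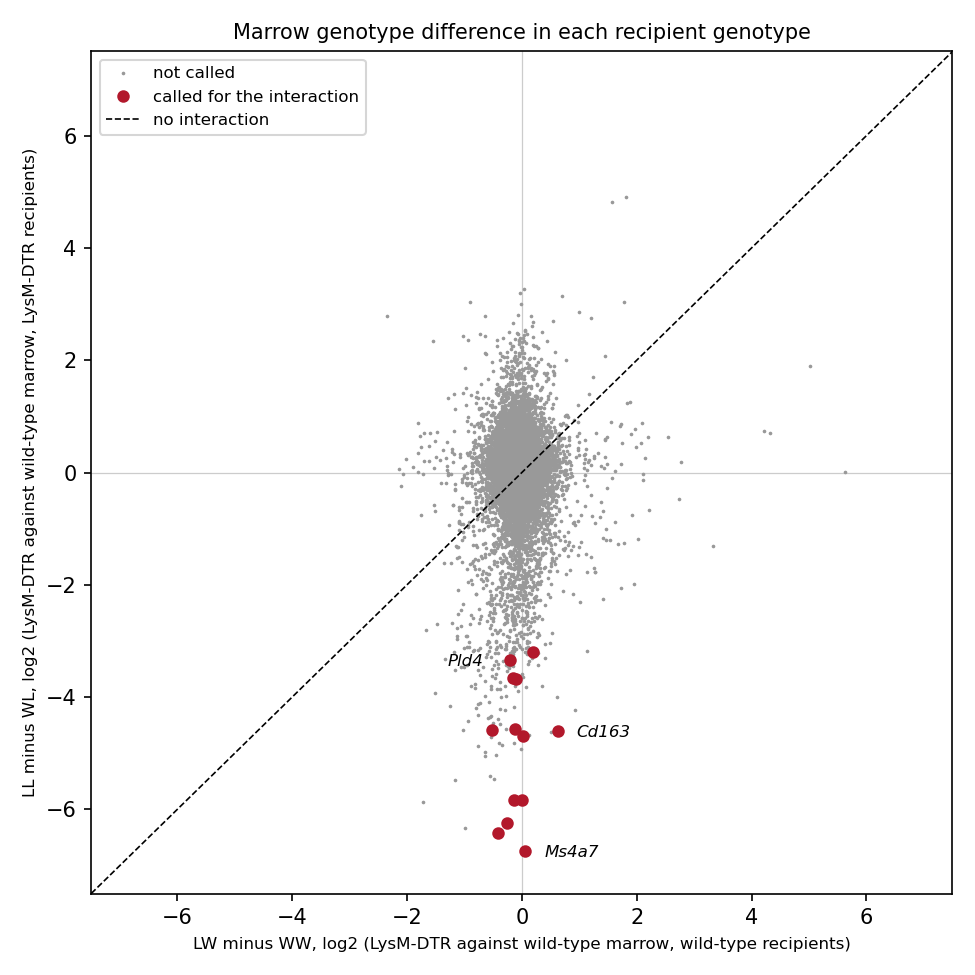
Each point is one of the 23587 genes, with LW minus WW (log2) on the horizontal axis and LL minus WL (log2) on the vertical axis, and the dashed line marks no interaction. The 13 called genes, in red, lie between −0.52 and 0.63 across and between −6.74 and −3.21 down.

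The 2 WL mice differed from each other more than any other pair, and every result was therefore also computed with each of them alone. Between the WL mice, 16.4% of genes differed by at least 1 on the log2 scale, against 2.65% between the LL mice, 1.5% between the LW mice and 1.27% between the WW mice. Across the 23587 genes, WL mouse 1 correlated at 0.960 with the LL mean and at 0.994 with the mean of LW and WW, and WL mouse 2 at 0.973 with the LL mean and at 0.957 with the mean of LW and WW. An interaction of −1 or less with each WL mouse in turn was found for 605 genes (2.56%), and one of 1 or more with each for 362 genes (1.53%). All 13 called genes were among the 605. In 499 of the 605 both LL arrays were below the 6 others, against 10.2% of all genes. In 250 of the 362 both were above, against 12.7% of all genes. The LL arrays enter the interaction that chose these genes, so the choice favours these patterns and they support nothing further.

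The arrays shared 1 slide and 1 scan. In the array barcodes of the file headers, the first position number was 1 for LL and WL and 2 for LW and WW. The second was 1 or 2 for LL and LW and 3 or 4 for WL and WW. These numbers were taken as positions on the slide, and the barcodes do not say which direction each one counts. An effect of either position number alone cancels in the interaction. An effect of the second number that differs with the first cannot be told apart from it. Signal at the 75th percentile was 208.6 to 324.4 units of intensity, and between 66.3 and 72.3% of spots per array were well above background. Lung markers were present on all 8 arrays, with surfactant protein Sftpc from 7.41 to 9.81, club cell Scgb1a1 from 8.99 to 9.68 and alveolar type 1 Ager from 7.90 to 8.63. The liver gene Alb, chosen after its values were seen, was 3.84 in LW mouse 2 and at most −1.43 on the other arrays, and its part in the results was not tested.

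Monocyte and recruited macrophage genes had the most negative median among the 37 lists of cell type and pathway genes. Of 32 genes tested, 7 passed and all 7 were negative, where 0.0551% of all genes were called lower. Values below 0 were found in 26 of the 32, and in 10175 of all 23587 genes. Both LL arrays were below the 6 others in 24, where 10.2% of all genes had that pattern. The median interaction was −3.01, against 0.06 over all genes, and it was −2.65 with WL mouse 1 alone and −3.06 with WL mouse 2 alone. In this list 21 of the 32 had a value of −1 or less with each WL mouse, against 2.56% of all genes. LL against WL called 19 of the 32 lower, where it called 1.28% of all genes lower. The list mean minus the WW mean was −2.89 and −2.32 in LL, against 0.18 and 0.63 in WL, −0.17 and −0.36 in LW, and −0.06 and 0.06 in WW.

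Ccr2, the receptor that draws monocytes to CCL2, was −4.68 and −4.09 in LL, against 0.39 and 0.95 in WL, 0.42 and −0.34 in LW, and 0.64 and 0.72 in WW. Its interaction of −4.41 (SE 0.47) did not pass (adjusted p = 0.0577). Fcgr1, the high-affinity receptor for IgG, was at background on both LL arrays. It was −0.87 and 0.52 in WL, −1.68 and −1.89 in LW, and −1.5 and −1.09 in WW. By the floor, LL was 21.5-fold below the sum (adjusted p = 0.123 by limma, not passing), or 13.3-fold and 34.9-fold with the WL mice in turn. Not every member followed. Chosen after their values were seen, Itgam, the integrin of myeloid cells, had 0.28, Cd14 0.07, Trem2 0.03 and Ly6c2, which marks inflammatory monocytes, 1.13, and none of them passed. Ly6c2 was 8.08 and 8.39 in LL, against 6.82 and 7.77 in WL, 6.79 and 6.72 in LW, and 6.99 and 6.90 in WW.

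Neither lysozyme gene passed, Lyz2, whose promoter drives the transgene, or its neighbour Lyz1. Lyz2 was 4.67 and 4.94 in LL, against 8.70 and 7.36 in WL, 8.99 and 8.84 in LW, and 9.05 and 9.09 in WW. Its interaction was −3.07 (SE 0.57, adjusted p = 0.162), with −3.74 for WL mouse 1 alone and −2.40 for WL mouse 2 alone. Lyz1 gave −3.11 (SE 0.67, adjusted p = 0.216). The 2 genes are near-identical copies and their probes may read both.

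Resident alveolar macrophage genes had a median nearer 0. Of 21 tested, none passed and 17 were below 0, where 10175 of all 23587 genes were. The median was −0.96, with −1.74 for WL mouse 1 and −0.28 for WL mouse 2. Itgax, the integrin CD11c, was −2.73 and −1.40 in LL, against 2.57 and 2.26 in WL, 2.32 and 1.83 in LW, and 2.38 and 2.54 in WW (interaction −4.09, adjusted p = 0.100). Siglecf, a lectin of alveolar macrophages and eosinophils, was at background on both LL arrays. By the floor its interaction was −3.33 (adjusted p = 0.343 by limma), or −4.68 with WL mouse 1 alone and −1.98 with WL mouse 2 alone. Marco, a scavenger receptor, was −1.23 and −0.43 in LL, against 2.65 and −1.49 in WL, −0.57 and 1.72 in LW, and 1.73 and −0.39 in WW. Its groups overlapped, and its interaction was −3.39 with one WL mouse and 0.75 with the other.
Fabp5, a fatty acid binding protein, and Mrc1, the mannose receptor, were the members with the smallest p, at −2.88 and −3.30 (adjusted p = 0.0906 and 0.0948).

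Several further genes with a negative interaction, among them enzymes and receptors of myeloid cells, had a small p and did not pass. Genes with a positive interaction had p in the same range, such as Nkx6-2 (2.07, adjusted p = 0.0502 by limma). Ctss, the protease cathepsin S that trims the MHC class II invariant chain, was 0.37 and 1.08 in LL, against 5.80 and 5.28 in WL, 4.90 and 4.40 in LW, and 5.07 and 5.01 in WW (interaction −4.42, adjusted p = 0.0502). Tlr1, a Toll-like receptor, had −3.21 (adjusted p = 0.0502), Tbxas1, thromboxane synthase, −3.83 (adjusted p = 0.0508), Bin2 −2.54, Prune2 −2.19 and Nckap1l, the haematopoietic subunit of the WAVE complex, −3.25. In LL, Gatm, the first enzyme of creatine synthesis, and Cd209f, a C-type lectin, were at background. By the floor they were 10.3-fold and 24.9-fold below the sum (adjusted p = 0.0502 and 0.0773 by limma). With the WL mice in turn the bound for Cd209f was 38.9-fold and 15.9-fold. All of these genes with a negative interaction lay lowest in LL.

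In complement, the 3 C1q chains passed and the other 17 genes tested did not, where 0.0551% of all genes were called lower. The median of the 20 was 0.02, with −0.55 and 0.01 for the WL mice in turn. Chosen after their values were seen, the receptor C5ar1 had −2.98 and properdin, Cfp, had −1.71. The anaphylatoxin receptor C3ar1, chosen likewise, was at background in LL. By the floor it was 8.68-fold below the sum (5.78-fold and 13.1-fold with the WL mice in turn). Chosen in the same way, the plasma components C3 and C4b and the C1 inhibitor Serping1 had 0.39 to 0.49.

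Platelet genes were low in LL with either WL mouse. Of 16 tested none passed, 12 had both LL arrays below the 6 others against 10.2% of all genes, and the median was −1.41, with −1.29 and −1.33 for the WL mice in turn. LL against WL called 8 of the 16 lower, against 1.28% of all genes. Ppbp, a chemokine of platelet granules, was −4.53 and −5.81 in LL, against 1.47 and 0.85 in WL, 1.55 and 0.97 in LW, and 1.94 and 2.58 in WW (interaction −5.34, adjusted p = 0.0773). Gp9, part of the receptor for von Willebrand factor, was at background in LL and, by the floor, 19.3-fold below the sum (adjusted p = 0.0739 by limma). Pf4, platelet factor 4, was −0.49 and −0.81 in LL, against 2.73 and 3.92 in WL, 3.21 and 2.35 in LW, and 2.86 and 3.26 in WW (interaction −3.70, adjusted p = 0.144). The lung can hold megakaryocytes and blood, and how much blood each sample held was not tested.

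Lymphocyte genes gave an interaction whose size turned on the WL mouse. For B cell genes the median was −1.87, with −2.84 for WL mouse 1 and −0.86 for WL mouse 2; for NK cell genes it was −1.78, with −2.52 and −1.13; for T cell genes it was −1.29, with −1.96 and −0.76. None of the 16 B cell, 13 NK cell and 20 T cell genes tested passed. Both LL arrays were below the 6 others in 11 of 16, 11 of 13 and 15 of 20, against 10.2% of all genes. Cd79a, a chain of the B cell receptor complex, was −4.48 and −4.11 in LL, against −1.99 and −3.80 in WL, −2.0 and −1.28 in LW, and −2.20 and −2.10 in WW. Here WL mouse 2 lay near LL and WL mouse 1 within the range of LW and WW. Klrd1, the NK receptor CD94, was −3.63 and −3.54 in LL, against −0.25 and −1.09 in WL, −0.47 and −0.09 in LW, and 0.00 and −0.06 in WW (interaction −2.67, adjusted p = 0.108). Cd3e, a chain of the T cell receptor complex, had 0.04, with −0.44 and 0.53 for the WL mice in turn.

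MHC class II genes, which present antigen, lay in the same direction. For the list of interferon gamma and MHC class II genes the median was −1.52, with −2.20 and −0.74, and none of 19 passed. The 9 MHC class II genes among them had −2.35 to −1.52, and both LL arrays were below the 6 others in 9 of 9, against 10.2% of all genes. H2-DMa, a chain of the peptide exchange factor, was −1.65 and −1.1 in LL, against 1.18 and 0.60 in WL, 0.94 and 0.34 in LW, and 0.91 and 0.67 in WW (interaction −2.12, adjusted p = 0.207). Dendritic cell genes had a median of −0.96, with −1.04 and −0.77, and Clec10a, a galactose lectin, had −3.59 (adjusted p = 0.108).

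Neutrophil genes had a positive median. It was 0.72, with 1.28 and 0.08 for the WL mice in turn, and none of 23 passed. Ly6g, the surface marker of mouse neutrophils, was 3.19 and 3.47 in LL, against 1.96 and 3.08 in WL, 1.82 and 1.88 in LW, and 1.91 and 1.61 in WW (interaction 0.72, adjusted p = 0.795). S100a8, a calcium-binding alarmin, was 3.76 and 5.94 in LL, against 3.42 and 5.30 in WL, 3.90 and 5.22 in LW, and 4.42 and 5.66 in WW, and all groups overlapped. Camp, a granule peptide, had the largest value of the list, 5.14 (SE 1.15, adjusted p = 0.232). Camp was −0.57 and 1.86 in LL, against −2.60 and −1.70 in WL, −2.86 and −2.17 in LW, and 0.33 and −0.67 in WW. Its LL minus WL difference was 2.79 and its LW minus WW difference −2.34, and neither passed.

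Alveolar epithelium split into 2 patterns. Alveolar type 2 genes had a median of −0.68, with −1.23 for WL mouse 1 and 0.07 for WL mouse 2, and none of 24 passed. Sftpc, surfactant protein C, was 7.41 and 7.83 in LL, against 9.51 and 7.55 in WL, 9.70 and 9.57 in LW, and 9.63 and 9.81 in WW. WL mouse 2 lay within the LL range and WL mouse 1 just below the range of LW and WW, and the interaction was −1.81 with WL mouse 1 and 0.15 with WL mouse 2. Sftpb had 0.29 (adjusted p = 0.866). The list mean minus the WW mean was −1.68 and −1.5 in LL, against −0.10 and −1.43 in WL, 0.00 and −0.16 in LW, and 0.03 and −0.03 in WW.

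Alveolar type 1 genes, of the thin cells that form the gas exchange surface, lay above the sum. All 20 genes tested were above 0, where 13385 of the 23587 genes were, and none passed. Their median was 0.92, with 0.67 and 1.04 for the WL mice in turn. Both LL arrays were above the 6 others in 12 of 20, where 12.7% of all genes had that pattern. Timp3, an inhibitor of metalloproteinases, was 6.87 and 6.83 in LL, against 5.55 and 5.63 in WL, 5.27 and 5.51 in LW, and 5.61 and 5.56 in WW (interaction 1.46, adjusted p = 0.0938). Ager, the receptor RAGE, was 8.63 and 8.59 in LL, against 8.01 and 7.90 in WL, 8.02 and 8.02 in LW, and 8.25 and 8.25 in WW (interaction 0.89, adjusted p = 0.191). Hopx, a homeodomain protein, was 6.58 and 6.52 in LL, against 5.64 and 4.70 in WL, 5.89 and 5.90 in LW, and 6.15 and 6.0 in WW (interaction 1.56, adjusted p = 0.313).

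Mesothelial genes, of the cells that line the lung surface, also lay above the sum. All 13 tested were above 0, where 13385 of all 23587 genes were, and none passed. The median was 1.07, with 0.63 and 1.19 for the WL mice in turn. Wt1, a transcription factor of mesothelium, was 1.34 and 1.06 in LL, against −0.25 and −0.18 in WL, −0.37 and −0.65 in LW, and −0.57 and −0.69 in WW (interaction 1.30, adjusted p = 0.158). Upk1b, a uroplakin, was 2.53 and 2.10 in LL, against 1.23 and 0.79 in WL, 1.46 and 1.42 in LW, and 1.28 and 1.25 in WW (interaction 1.13, adjusted p = 0.310). In both genes the LL arrays were above all others and the other 3 groups lay close together.

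Genes of the alveolar transitional state, through which type 2 cells pass on the way to type 1 cells, had no set direction. The median was 0.32, with 1.40 for WL mouse 1 and −0.41 for WL mouse 2. Krt8, a keratin, was 6.46 and 6.36 in LL, against 4.95 and 7.11 in WL, 4.81 and 4.83 in LW, and 4.75 and 4.78 in WW. WL mouse 2 was above both LL mice and WL mouse 1 near LW and WW, so the interaction was 1.40 with one and −0.75 with the other. Krt19 had 1.20, with 2.27 and 0.13. Krt5, a basal cell keratin, had −0.87, with −0.05 and −1.69.

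Acute phase genes and chemokines showed the same split. Acute phase genes had a median of 0.69, with 1.44 and −0.12, and the cytokines and chemokines had −0.37, with 0.34 and −1.23. Saa3, serum amyloid A3, was 6.20 and 8.21 in LL, against 1.83 and 6.52 in WL, 3.05 and 2.78 in LW, and 1.25 and 1.02 in WW. Il6 was −0.31 and 1.40 in LL, against −2.90 and 1.99 in WL, −3.42 and −3.74 in LW, and −3.32 and −4.51 in WW. Both were high in LL and in WL mouse 2, and their interactions were 3.60 and −1.1 for Saa3 and 3.11 and −1.78 for Il6 with the WL mice in turn. Cxcl1 had 5.07 and −0.74 and Ccl2 had 3.06 and −2.69 in the same order, Ccl2 being 1.92 and 4.03 in LL, against −0.13 and 5.62 in WL, −0.17 and −0.76 in LW, and −0.14 and −0.87 in WW.
Ccl8, a monocyte chemoattractant, kept one direction. It was −2.91 and −1.58 in LL, against 2.73 and 1.70 in WL, 1.40 and 0.97 in LW, and 1.52 and 1.85 in WW (interaction −3.96, adjusted p = 0.157).

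**Figure D3:**
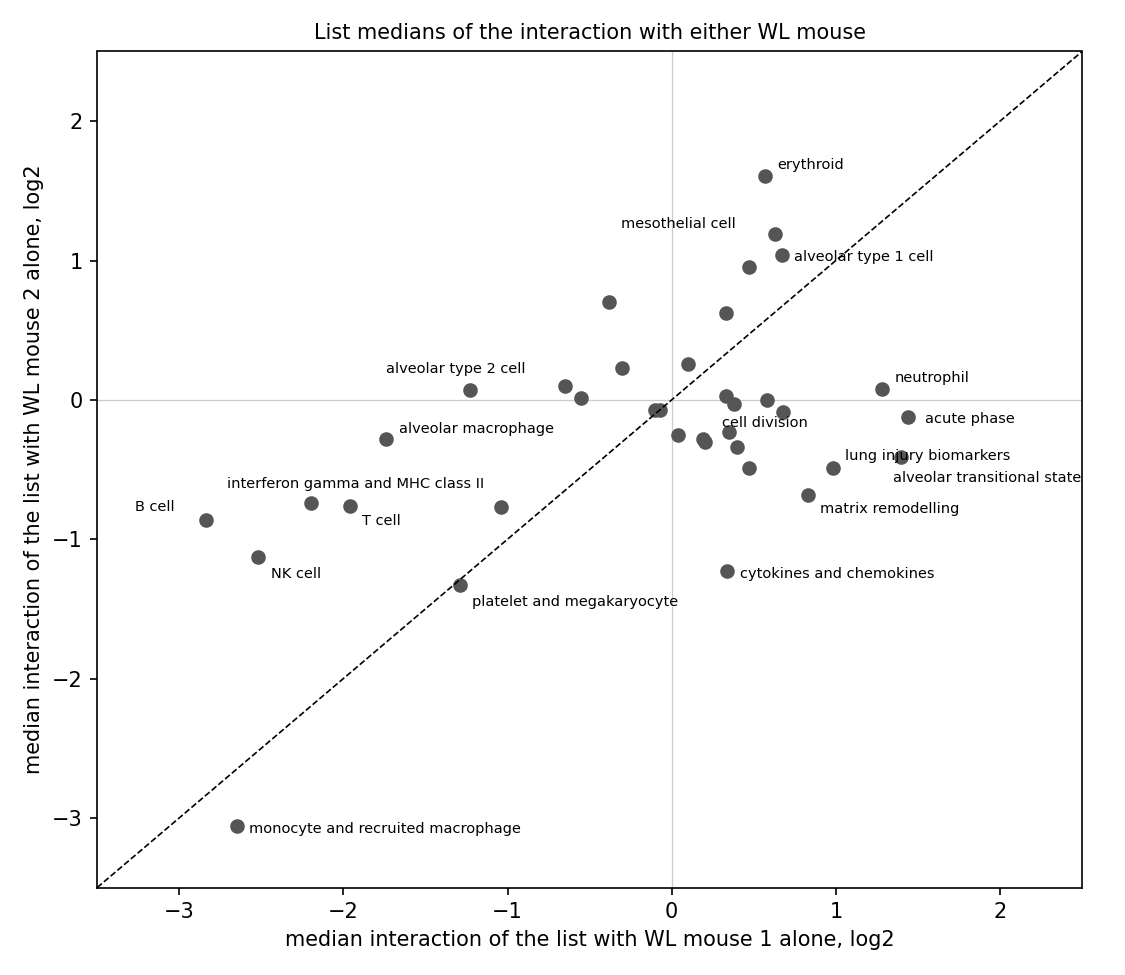
Median interaction (log2) of each of the 37 gene lists computed with WL mouse 1 alone (horizontal axis) and with WL mouse 2 alone (vertical axis), and the dashed line marks equal values. The monocyte and recruited macrophage list lies at −2.65 and −3.06, and the acute phase list, at 1.44 and −0.12, is among the 18 lists whose 2 medians differ in sign.

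Over the 37 lists, both medians were below 0 in 10, both above 0 in 8, of opposite sign in 18, and 1 list had a median of 0. Growth factors, the subject of the title, had a median of −0.05 over 58 genes, with −0.07 for either WL mouse, and none passed. Ptn, pleiotrophin, was 0.01 and −0.33 in LL, against −1.94 and −2.09 in WL, −1.42 and −1.78 in LW, and −2.06 and −1.54 in WW (interaction 1.66, SE 0.34, adjusted p = 0.200). Vegfc, which acts on lymphatic endothelium, was 2.04 and 1.94 in LL, against 1.02 and 1.28 in WL, 0.97 and 0.98 in LW, and 1.15 and 1.05 in WW (interaction 0.97, adjusted p = 0.216). In Ptn and Vegfc both LL arrays were above the 6 others. Of the 58 growth factors 8 had that pattern, near the 12.7% of all genes. In 7 of the 58 both LL arrays were below the 6 others, against 10.2% of all genes. A negative interaction was found in 31 of the 58, and in 10175 of all 23587 genes. Hbegf, an EGF receptor ligand whose human form is the natural toxin receptor, had 0.79, with 1.64 and −0.05, and Areg, another such ligand, had 0.78, with 1.95 and −0.38. Whether the Hbegf probe reads the transgene was not tested.

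Among biomarkers of lung injury the median was 0.29, with 0.98 and −0.49, and none of 33 passed. Procr, the endothelial protein C receptor, had 1.1 (adjusted p = 0.534) and Ager 0.89. Lcn2, lipocalin 2, was 5.74 and 7.68 in LL, against 5.04 and 6.80 in WL, 4.79 and 3.49 in LW, and 4.33 and 4.29 in WW, with 1.84 and 0.08 for the WL mice in turn. Its LL and WL ranges overlapped.

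LL against LW called 27 of the 37 cell division genes tested higher, and WL against WW called none of them. None of 37 passed for the interaction, and the median was 0.19, with 0.38 and −0.03. Over all genes, LL against LW called 1.21% higher and WL against WW called 0%. The median LL minus LW was 1.53 and the median WL minus WW was 1.41. The list mean minus the WW mean was 1.5 and 1.46 in LL, against 1.1 and 1.53 in WL, 0.08 and −0.13 in LW, and 0.01 and −0.01 in WW. Mki67, the Ki-67 antigen, was 2.33 and 2.47 in LL, against 2.44 and 2.44 in WL, 1.34 and 0.95 in LW, and 1.22 and 1.23 in WW (interaction 0.04, SE 0.24). Its LL minus LW difference of 1.26 passed (adjusted p = 0.0223), and its WL minus WW difference of 1.21 did not (adjusted p = 0.288). Cdk1, the mitotic kinase, was −1.26 and −1.39 in LL, against −2.22 and −0.77 in WL, −3.84 and −4.04 in LW, and −4.03 and −3.78 in WW (interaction 0.21, with 0.93 and −0.52).

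**Figure D4:**
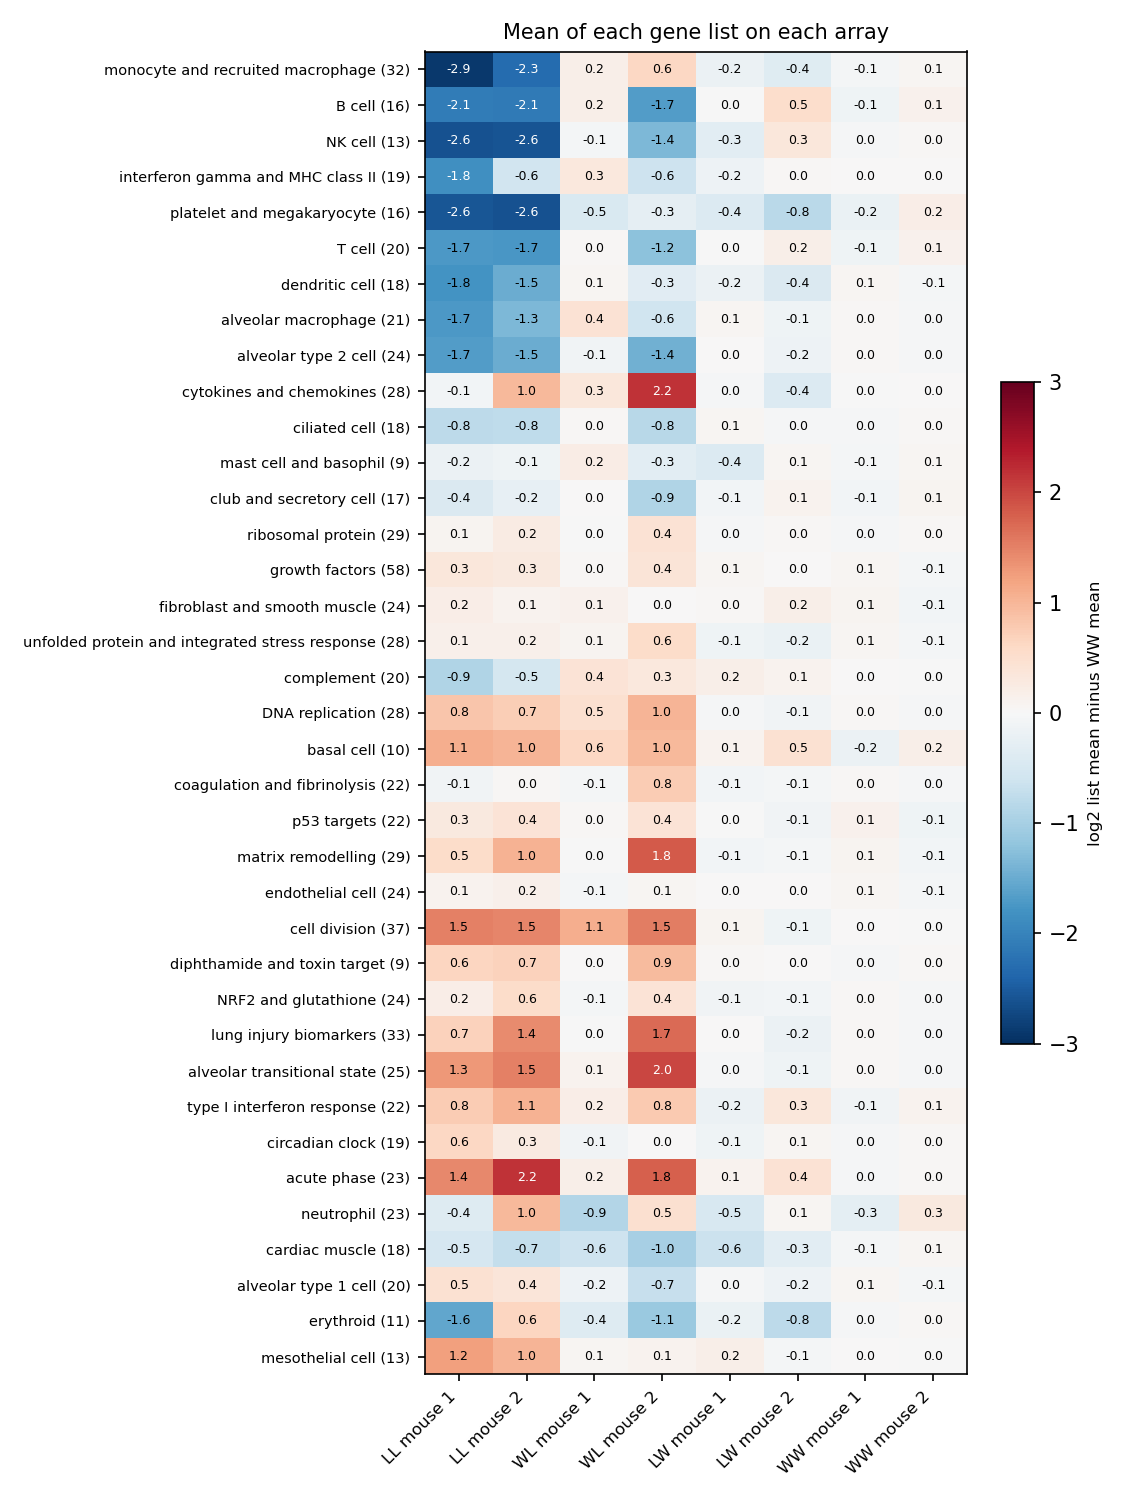
Mean of each of the 37 gene lists on each array, as log2 list mean minus the WW mean, with red above and blue below WW and the number of genes tested in brackets; rows run from the most negative median interaction to the most positive. The monocyte and recruited macrophage row is low in both LL mice (−2.89 and −2.32, against −0.36 to 0.63 in the 6 others), while the B cell and alveolar type 2 rows are low in LL and in WL mouse 2.

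Endothelial and fibroblast lists had medians near 0. The endothelial median was 0.19 and that of fibroblast and smooth muscle genes 0.01. Pecam1 had 0.06, Cdh5, VE-cadherin, −0.10, Vwf 0.80 and Col1a1, a collagen chain, 0.11, and none of these passed. The endothelial gene Apln had −1.52, and Lum and Postn of the fibroblast list had −0.94 and −0.71. None passed, and in each both LL arrays were below the 6 others. That pattern held in 1 of 24 endothelial and 6 of 24 fibroblast and smooth muscle genes, against 10.2% of all genes. Both LL arrays were above the 6 others in 6 and 5 of them, against 12.7% of all genes. Cldn5, a tight junction protein of endothelium, was 5.98 and 6.38 in LL, against 5.41 and 5.39 in WL, 5.31 and 5.38 in LW, and 5.59 and 5.37 in WW (interaction 0.92, adjusted p = 0.329). Ribosomal protein genes had a median of −0.06 and Eef2, elongation factor 2, the protein that diphtheria toxin inactivates, was between 6.44 and 6.80 on all arrays. The airway genes Scgb1a1 and Foxj1 had 0.36 and −0.43. Cardiac muscle genes, which can come from pulmonary vein or heart in the sample, had a median of 0.78, with 0.47 and 0.95, and Myh6 was 6.28 and 6.07 in LL, against 5.66 and 5.07 in WL, 5.96 and 6.26 in LW, and 6.43 and 6.58 in WW.

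No gene with a positive interaction passed, and the 15 with the smallest p had adjusted p from 0.0502 to 0.0938. In all 15 both LL arrays were above the 6 others, against 12.7% of all genes, and in 11 of the 15 the WL and LW means were both below the WW mean. Choosing genes by a small p of a positive interaction favours these patterns, so they describe the choice and support nothing further. Nkx6-2, a homeobox factor, was 0.25 and 0.01 in LL, against −2.11 and −2.18 in WL, −1.48 and −1.59 in LW, and −1.75 and −1.72 in WW (interaction 2.07, SE 0.20, adjusted p = 0.0502). Rgcc, a regulator of the cell cycle, was 6.37 and 6.32 in LL, against 4.47 and 4.90 in WL, 4.64 and 4.80 in LW, and 5.29 and 5.32 in WW (interaction 2.24, adjusted p = 0.0583). In Rgcc each single genotype lay below WW and the 2 together above it.

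Calcb, which encodes the neuropeptide beta-CGRP, had the largest value of the 15. It was −1.26 and −1.24 in LL, against −4.09 and −4.82 in WL, −3.44 and −3.67 in LW, and −3.30 and −3.75 in WW (interaction 3.24, adjusted p = 0.0720). Adamts15, a metalloproteinase, was 3.72 and 3.64 in LL, against 1.91 and 1.28 in WL, 2.15 and 2.06 in LW, and 2.40 and 2.51 in WW (interaction 2.43, adjusted p = 0.0773). Timp4, an inhibitor of metalloproteinases, had 1.81, Gdf2, the ligand BMP9, 1.69, Sult1a1, a phenol sulfotransferase, 1.70, and Arsb, arylsulfatase B, 2.14. The others of the 15 were Clic3, Gramd2, Sh3d21, Timp3, Tecrl, Baiap2 and Me3, at 1.26 to 1.93. LL minus WL ran from 0.99 to 3.21 in the 15 and LL minus LW from 0.63 to 2.31, both of which share arrays with the interaction that chose the genes.

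**Figure D5:**
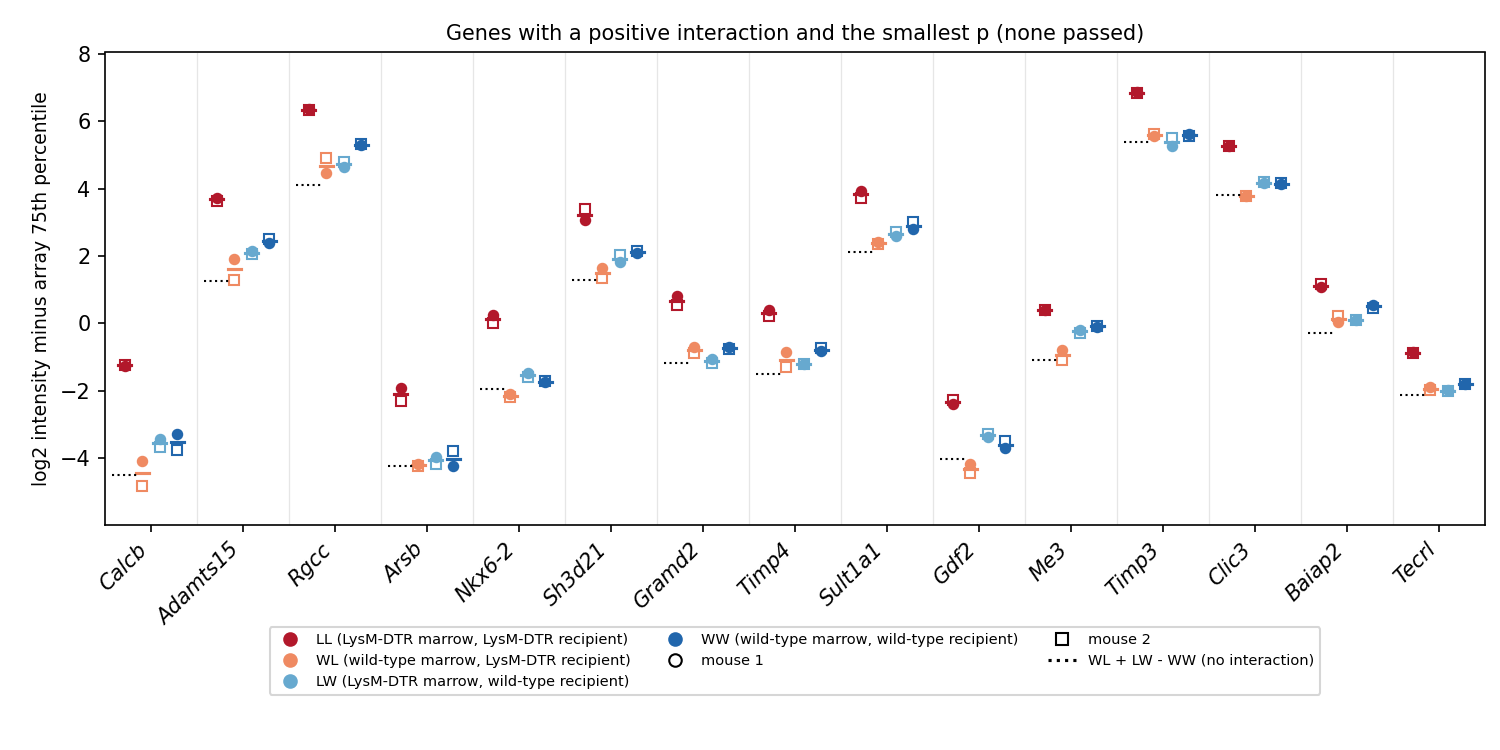
Log2 intensity minus the array's 75th percentile (vertical axis) of the 15 genes with a positive interaction and the smallest p (horizontal axis) in each of the 8 lungs; bars are group means and the dotted line is the level of LL if the single differences added up. In all 15 the LL points are the highest, and none of the 15 passed the threshold.

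On the positive side, 5 genes at background on both LW arrays had the largest bounds, and none passed. With LW at the floor, Olfr391-ps lay 2.84-fold and 2.85-fold above the sum with the WL mice in turn. Its WW mice differed, at −3.885 and −2.26, and its fitted interaction was 1.595 with an SE of 0.873. Arsi lay 2.96-fold above the sum, with 4.08-fold and 2.15-fold for the WL mice in turn. Tmem252 lay 3.89-fold above it, with 9.23-fold and 1.64-fold in turn. None of these folds is a strict lower limit. For Nrip3 and Pbp2 one WL mouse set the direction: with WL mouse 1 alone the interactions were 3.58 and 4.76, and with WL mouse 2 alone −0.23 and −1.49. The aldo-keto reductase Akr1c14 had a value of 2.32 (adjusted p = 0.143), being 2.22 and 2.77 in LL, against −0.15 and 0.44 in WL, −0.31 and 0.07 in LW, and −0.07 and −0.23 in WW, and among clock genes Cry1, a repressor of the clock, had 1.45 (adjusted p = 0.344).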

How the data were processed

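Total RNA of 8 whole lungs, carrying the dye Cy3, was read on Agilent arrays of 1 colour, per the labels. The deposited intensity values come from Agilent Feature Extraction, version 11.5.1.1, as the file headers and the submitters' processing notes state, with background subtracted and trends across each array removed. Log2 values in the authors' series table matched log2 of the processed intensity minus a constant per array. Probe positions are on mm9. Here non-uniform spots (0 to 4 per array) were left out, spots of a probe were averaged over 56605 probes, log2 was taken and each array's 75th percentile subtracted. Probes were kept (35873) when both arrays of a group were well above background in 3 or more groups, and a gene took the probe with the highest mean. Names are the array's, and 17303 genes matched a RefSeq table of GRCm38.p6, which also gave the promoters.

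A model of 4 group means was fitted to all 8 arrays with limma 3.58.1 in R 4.3.3 (4 residual and 2.37 prior degrees of freedom), and the Benjamini-Hochberg adjustment ran over 23587 genes. SDs are over 2 mice. The number of arrays limits the precision. The members and the 37 lists (874 entries, 822 tested) were chosen with earlier results of these data known. Named genes follow a written rule: up to 15 per direction above background on all arrays, the 5 largest bounds per direction, up to 4 called or the 2 smallest-p members of a list, and a fixed set. All 13 called genes are named, Serpinb10 and Cd200r1 outside the rule because they were called. Ncr1, of the fixed set, did not pass the filter. Genes said to be chosen after their values were seen are outside the rule. On simulated data the model was tested before use. The labels do not say what a replicate number marks, and between groups the differences between same-numbered mice correlated at −0.108 to 0.217 across genes, so the numbers were not taken to pair mice. Figures were drawn with matplotlib 3.10.9 in Python 3.11.15.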

Additional observations from a re-analysis of the deposited data

Results flagged for a closer look

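The marrow difference in LysM-DTR recipients differed from that in wild-type recipients, by the test of the interaction itself, in 13 genes. The interaction was −6.80 for Ms4a7, −6.01 for Cx3cr1, −5.98 for Clec7a, −5.83 for C1qa, −5.71 for C1qc, −5.24 for Cd163, −4.71 for Cd200r1, −4.44 for C1qb, −4.07 for Serpinb10, −3.58 for Scimp, −3.52 for Aif1, −3.40 for Slamf9 and −3.13 for Pld4 on the log2 scale. For Cd163, Cd200r1 and Serpinb10, which were at background in LL, the floor gave −4.17, −2.85 and −2.01 in the main processing. These are not strict limits. Over all settings tried, their weakest interactions were −1.46, −0.63 and −0.41. Second probes that passed the filter gave −5.77 for Ms4a7, −4.67 for Cx3cr1, −3.09 for Clec7a and −3.98 for Cd200r1. Each of these probes was above background on only 6 arrays. Under the filter, this leaves both arrays of a group at background, so these fitted values are no bounds. A second probe of Scimp, above background on 2 arrays, gave −3.95, and second probes of C1qc and Cd163 were above background on 0 arrays.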

How the results depend on the processing

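The 13 called genes stayed negative in all 242 values that the alternatives gave and past the threshold in 131 of them. Counts for the interaction were 20 with quantile normalisation (3 higher, 17 lower, with all 13 among them), 8 with a filter on all 8 arrays, 1 with no filter, 21 with the mean of a gene's probes, 21 with a robust trended variance and 0 with array quality weights, and ran from 0 to 2535 with 1 array left out. With array weights none of the 23587 genes passed by limma. The normexp correction gave 10, and the percentile over probes detected on all arrays and the filter on 1 group gave 16 each. Genes called higher numbered 3 with the robust trended variance. They numbered 1 each with normexp, the filter on 1 group and the mean of a gene's probes. With the replicate number as a block 2 genes passed for the interaction, 291 for LL against WL, and 348 for LL against LW; the block changed no other count beyond 1.5 times.

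LL against WL called 447 genes, 255 with no filter, 10 with array weights, and 54 to 5438 with 1 array left out. LL against LW called 673, 291 with no filter, 8992 with array weights, and 1 to 8469 with 1 array left out. LW against WW called 14 with the filter on 1 group and 6 with no filter. WL against WW called 1 with the filter on 1 group, and 0 to 10036 with 1 array left out, the higher without WL mouse 1. The cause was not tested.

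Among genes that did not pass, the sign turned for Cd3e to −0.01 and Mki67 to −0.03 with normexp, and for Cd3e to 0.00, Mki67 to −0.01 and Col1a1 to 0.00 with quantile normalisation. With 1 array left out, 22 named genes changed sign. Their ranges were −0.38 to 1.95 for Areg, −2.69 to 3.06 for Ccl2, −0.44 to 0.53 for Cd3e, −0.01 to 2.85 for Cdc45, −0.20 to 0.01 for Cdh5, −0.52 to 0.93 for Cdk1, −0.32 to 0.53 for Col1a1, −0.74 to 5.07 for Cxcl1, −0.18 to 0.17 for Eef2, −0.05 to 1.64 for Hbegf and −1.78 to 3.11 for Il6. They were −0.75 to 1.40 for Krt8, −0.01 to 1.93 for Lcn2, −3.39 to 0.75 for Marco, −0.15 to 0.23 for Mki67, −0.23 to 3.58 for Nrip3, −1.49 to 4.76 for Pbp2, −0.20 to 0.33 for Pecam1, −0.59 to 0.01 for Rpl5, −0.12 to 2.06 for S100a8, −1.10 to 3.60 for Saa3 and −1.81 to 0.15 for Sftpc.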
